A study of Mus musculus with 7 samples.

Results

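Cluster 8 was a group of 258 myeloid cells of LLC tumor tissue with high levels of the chemokine genes Ccl2, Ccl7 and Ccl12. Its cells were all those that the authors' clustering at resolution 1 placed in cluster 8, that had gene counts and that came from the tumor tissue library. They were 258 of the 1917 counted tumor tissue cells (13.5%, 12.0 to 15.1) and of 4290 counted cells in all. The other 6 libraries held 0 cells of the cluster, which allows a share between 0.369% in naive blood and 5.26% in tumor-bearing bone marrow.

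The study profiled CD11b+ enriched cells of C57/Bl6 mice with single-cell RNA sequencing and oligo-tagged surface antibodies read in the same cells. The tumor-bearing group carried LLC (Lewis lung carcinoma, a transplantable mouse carcinoma) at day 14 and gave tumor tissue, blood, bone marrow and spleen, and the naive group gave blood, bone marrow and spleen. Each tissue and state was 1 library, and the labels gave no count of the mice behind it. Every comparison below is therefore within the tumor tissue library, has no replicate and carries no test.

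Ccl2, Ccl7 and Ccl12 are CC chemokines that bind the receptor Ccr2 and draw monocytes out of blood into inflamed tissue and tumors. Tumor monocytes that settle can take on macrophage genes such as the complement genes C1qa, C1qb and C1qc, while interferons switch on antiviral genes and the CXC chemokines Cxcl9, Cxcl10 and Cxcl11, which attract activated T cells through Cxcr3. Irg1 encodes the enzyme that makes the antimicrobial metabolite itaconate, Ly6a encodes the surface protein Sca-1, which interferons induce, Ms4a7 encodes a membrane protein of macrophages, and C3ar1 encodes the receptor for the complement fragment C3a.

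In GENCODE vM21 (GRCm38) the 3 CC chemokine genes lie in 1 stretch of chromosome 11, all on the plus strand. Ccl2 spans chr11:82035571-82037453, Ccl7 chr11:82045712-82047525 and Ccl12 chr11:82101845-82103400, with Ccl11 between Ccl7 and Ccl12 and Ccl8 at chr11:82115185-82116799. Cxcl10 lies at chr5:92346638-92348889 and C3ar1 at chr6:122847138-122856161, both on the minus strand. RefSeq promoter windows of 300 bases around the annotated start (GRCm38.p6) were held for 5 of the 8 marker genes. Shown are a CC chemokine gene, the CXC chemokine gene with the highest level among the markers and the receptor gene, each 5′ to 3′ on the strand of its gene. Capitals mark every match, on either strand, to an NF-kB motif (GGANNTNCC), an interferon-stimulated response element (ISRE, GAAANNGAA) or an AP-1 motif (TGANTCA).
Ccl12, chr11:82101595-82101894, plus strand: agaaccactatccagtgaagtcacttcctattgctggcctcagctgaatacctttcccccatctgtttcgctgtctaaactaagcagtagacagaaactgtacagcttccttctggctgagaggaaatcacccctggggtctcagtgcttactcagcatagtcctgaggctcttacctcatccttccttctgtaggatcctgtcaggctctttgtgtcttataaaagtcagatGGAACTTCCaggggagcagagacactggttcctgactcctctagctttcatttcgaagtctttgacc
Cxcl10, chr5:92348840-92349139, minus strand: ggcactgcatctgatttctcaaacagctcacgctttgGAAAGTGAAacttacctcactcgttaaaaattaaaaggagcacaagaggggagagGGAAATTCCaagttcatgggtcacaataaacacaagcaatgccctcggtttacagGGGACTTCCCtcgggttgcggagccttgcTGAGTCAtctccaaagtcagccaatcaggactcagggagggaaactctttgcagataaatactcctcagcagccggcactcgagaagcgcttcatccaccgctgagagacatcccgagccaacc
C3ar1, chr6:122856108-122856407, minus strand: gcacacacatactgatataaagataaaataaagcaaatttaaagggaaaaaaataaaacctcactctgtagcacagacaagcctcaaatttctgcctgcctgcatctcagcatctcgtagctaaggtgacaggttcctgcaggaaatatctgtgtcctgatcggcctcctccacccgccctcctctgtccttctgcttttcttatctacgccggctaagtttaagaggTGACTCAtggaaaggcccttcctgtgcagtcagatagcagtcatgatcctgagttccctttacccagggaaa

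With the annotated start at position 0, the Cxcl10 window held the ISRE at positions -213 to -205. It held NF-kB matches at -158 to -150, at -103 to -95 on the other strand and at -102 to -94, the last 2 of them overlapping, and an AP-1 match at -74 to -68. The C3ar1 window held an AP-1 match at -22 to -16, and the Ccl12 window an NF-kB match at -17 to -9, which reads on both strands. The NF-kB letters were found in 15.0% of 32851 such windows over all genes, the ISRE letters in 8.56% and the AP-1 letters in 7.81%. The letters searched were set after these windows had been read, and a match of letters is a description and not a measured binding site.

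Cluster 8 was the most CC-chemokine-rich of the larger tumor tissue clusters only for Ccl2, and it shared Ccl7 and Ccl12 with cluster 11. Levels are counts per 1000000 UMIs (unique molecular identifiers, counted molecules) summed over the cells of a group, written CPM. Ranges in parentheses are exact 95% intervals that cover counting error only, and the UMIs of 1 cell are not independent of each other. Ccl2 stood at 1705 CPM in cluster 8 (1659 to 1751), 1524 in cluster 10 and 1100 in cluster 11, and between 98.2 and 792 in the other 5 clusters with at least 50 cells. Ccl7 stood at 820 CPM in cluster 8 (788 to 852) and at 866 in cluster 11 (839 to 895), whose intervals overlapped, and then at 311 in cluster 10, 173 in cluster 3 and 51.5 in cluster 5. Ccl12 followed the same order, with 330 CPM in cluster 8 (310.2 to 351), 369 in cluster 11 (351 to 388) and 217 in cluster 10, and with no more than 37.9 in the other 5.

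The interferon-linked markers peaked elsewhere. Cxcl10 stood at 2638 CPM in cluster 8 but at 8699 in cluster 10, and Irg1 at 199 CPM in cluster 8 and 276 in cluster 10. Ly6a was highest in cluster 17, at 1880 CPM, with 1078 in cluster 8 and 904 in cluster 10. The macrophage gene Ms4a7 stood at 816 CPM in cluster 8, 943 in cluster 11 and 624 in cluster 3, against 75.6 in cluster 5. C3ar1 was at 503 CPM in cluster 8 and 478 in cluster 11, with intervals that overlapped, and at 361 in cluster 3. Cluster 8 thus ranked first of the 8 larger clusters for Ccl2 and C3ar1 and second for the other 6 markers. Cluster 13 is left out of this order because its 40 counted cells held 66701 UMIs in all. It stood above cluster 8 for Ccl7 (81 UMIs, 1214 CPM, 964 to 1509), and its intervals overlapped those of cluster 8 for Ccl2, Ccl12, Ms4a7 and C3ar1.

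**Figure D1:**
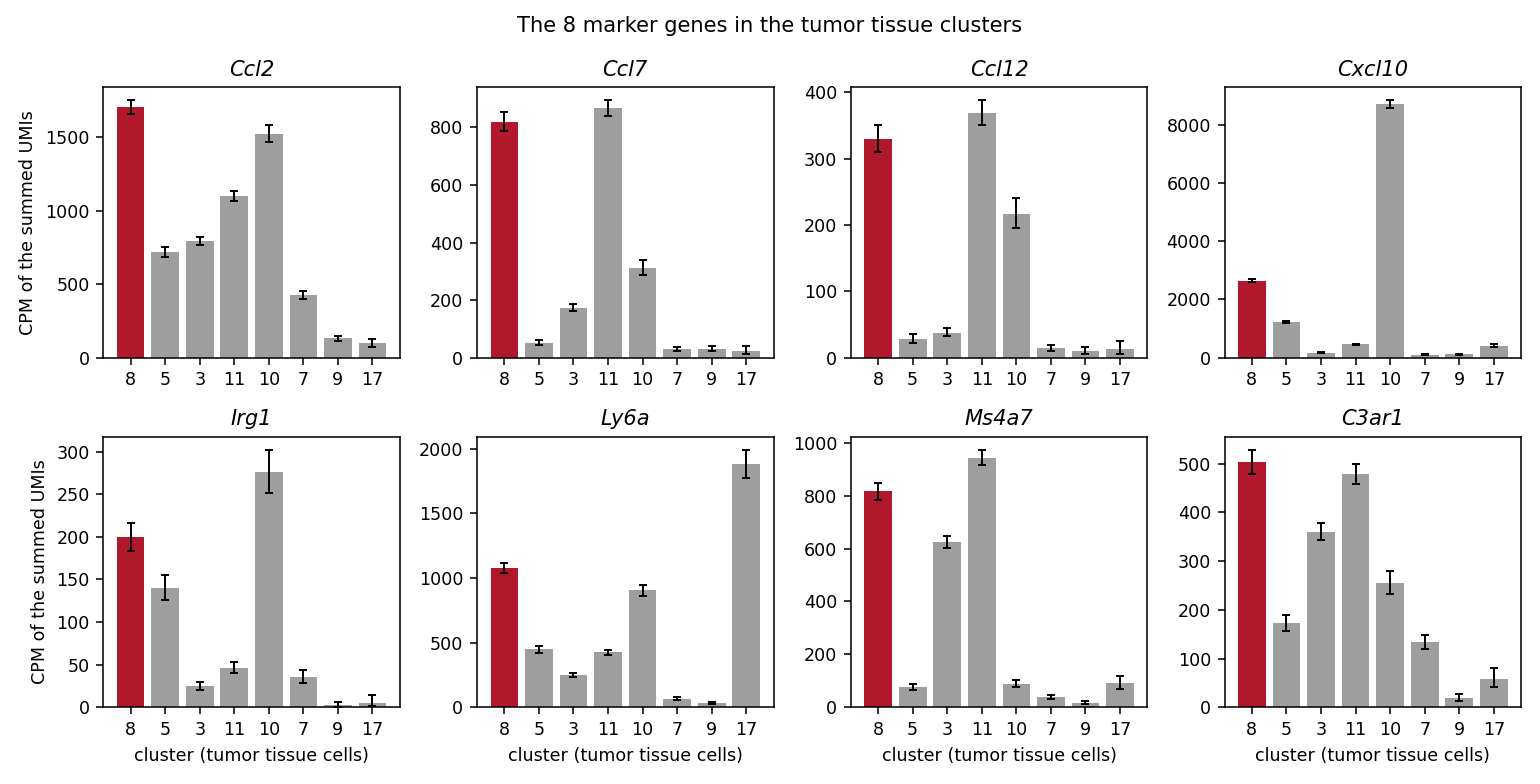
Level of each of the 8 marker genes (CPM of the summed UMIs, vertical axis from 0) in the 8 tumor tissue clusters with at least 50 cells. Bars are cluster levels and lines their 95% counting intervals. Cluster 8 (red) is highest for Ccl2 and, with an interval that overlaps that of cluster 11, for C3ar1. It is just below cluster 11 for Ccl7 (820 against 866 CPM) and far below cluster 10 for Cxcl10.

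Outside the tumor the chemokine markers were close to absent. Over the other 6 libraries together there was 1 UMI of Ccl7 and 7 of Ccl12, and no library exceeded 0.102 CPM of Ccl7 or 0.884 CPM of Ccl12. Ccl2 reached 19.7 CPM and C3ar1 11.7 CPM in the highest of these libraries. Cxcl10 was more widely read, between 26.9 and 233 CPM, and Ly6a between 19.5 and 68.3 CPM.

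Against the sum of the 1659 other tumor tissue cells, 6 of the 8 markers were higher by at least 2-fold. The clusters had been made from these same RNA counts, so these folds describe the cluster and show nothing beyond it. Genes count as measured here where the sums of both groups together hold at least 30 UMIs and either group reaches 20 CPM, and 45 of 5146 measured genes (0.874%) were higher and 44 (0.855%) lower by at least 2-fold. Ly6a was 2.74-fold higher (2.63 to 2.86), Ccl7 2.73-fold (2.60 to 2.86), Irg1 2.88-fold (2.61 to 3.17) and Ccl12 2.59-fold (2.40 to 2.79). Cxcl10 and Ccl2 were 2.16-fold higher, while Ms4a7 at 1.98-fold (1.89 to 2.07) and C3ar1 at 1.82-fold (1.72 to 1.92) stayed under 2-fold. Cluster 11, with 134 cells, gave 4246291 of the 17742418 UMIs of the other cells. Without cluster 11 the log2 ratio of Ccl7 was 2.74, against 1.45 with it, and that of Ccl12 2.66, against 1.37. Ms4a7 and C3ar1 then passed 2-fold, with log2 ratios of 1.73 and 1.23, while Cxcl10 no longer passed it, with 0.86. Cxcl10 was also under 2-fold with cells thinned to 3000 UMIs (0.91) and against an equal mix of the other clusters (0.72), as was Ly6a against that mix (0.91).

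Of 14 measured matrix and remodelling genes 3 were higher against the other cells (Mmp12, Mmp13 and Plau) and 2 lower (Mmp8 and Mmp19), with a median log2 ratio of -0.06. The collagenase gene Mmp13 stood at 22.6 CPM in cluster 8, against 5.97 in the other cells, and Slamf7, a signalling receptor of leukocytes, at 88.3 against 29.3. The macrophage elastase gene Mmp12 was 3.01-fold higher at 54.8 CPM, but 106 of its 170 UMIs came from 1 cell, and without that cell its log2 ratio was 0.17 in place of 1.54. The Cxcr3 ligand Cxcl11 stood at 70.6 CPM against 24.5, and the antiviral helicase-family gene Ddx60 was 2.86-fold higher (2.34 to 3.49). Il18bp, the secreted inhibitor of IL-18, stood at 49.7 CPM against 19.4. Cluster 10 stood above cluster 8 for Cxcl11 (206 CPM), Ddx60 (66.0 against 48.7), Il18bp (64.3) and Ifit3 (1825 against 527). It stood near cluster 8 for Slamf7 (85.1) and below it for Mmp13 (14.5). Of 28 measured type I interferon genes 5 were higher (Ifit2, Ifit3, Ifit3b, Phf11d and Slfn4) and 0 lower, with a median log2 ratio of 0.84, against -0.00 over all measured genes. Against an equal mix of the other clusters 1 of the 28 was higher, and at a threshold of 1.5-fold 27 were. Ifit3 and Ifit3b, like Ly6c2 and Ly6c1, are close copies of each other whose reads the counting could have split, so their separate values are uncertain. Of 14 measured interferon-gamma genes 3 were higher (Gbp4, Iigp1 and Socs1), also with a median of 0.84, and 0 against the equal mix.

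Of the 10 lowest genes, 7 stood highest in cluster 9 among the 8 larger clusters. Ace, the angiotensin-converting enzyme gene, stood at 4.19 CPM in cluster 8, against 104 in cluster 9, and Treml4, a receptor of non-classical monocytes, at 6.77 against 87.3. Serpinb10, a protease inhibitor gene, stood at 2.90 CPM against 137.5, Hp, the haptoglobin gene, at 97.0 against 1077, and Gsr, glutathione reductase, at 80.9 against 735. Pdlim1, which encodes a cytoskeletal adaptor, and Pglyrp1, which encodes a peptidoglycan-binding protein, were the other 2. Cd209a, a lectin of monocyte-derived dendritic cells, stood at 4.51 CPM in cluster 8 and 378 in cluster 17. Cbr2, a carbonyl reductase gene, stood at 16.4 CPM in cluster 8 and 209.8 in cluster 11, and its log2 ratio of -1.81 turned to 0.31 without cluster 11. The epidermal growth factor family gene Areg stood at 13.9 CPM in cluster 8 and 56.6 in cluster 3, with 13.9 in cluster 10 and 14.3 in cluster 9.

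The RNA of the cluster held the markers of monocytes and macrophages, but its 10 leading genes named no cell type. All 7 monocyte markers, Ly6c2, Ccr2 and F13a1 among them, and 9 of 10 macrophage markers stood at 20 CPM or more in cluster 8. Mertk, the remaining macrophage marker, stood at 0.645 CPM. None of either list was among the 10 genes with the largest fold at a pseudo-count of 10 CPM, which were Ly6a, Ccl7, Irg1, Slamf7, Ccl12, Slfn4, Cxcl11, Fcgr4, Cfb and Mmp12. The cluster is therefore called by its number and its leading genes.

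Markers of most other cell types were at low levels in cluster 8. The red cell markers were at 0 for 5 of 5 genes, and Cd3e, Cd3g, Cd8a, Cd4, Gzma and Ncr1 were at 0 among the T and NK cell markers, which summed to 2.26 CPM. Fibroblast markers summed to 18.4 CPM in cluster 8 and 19.8 in the other tumor tissue cells, carcinoma or epithelial markers to 8.71 and 11.9, and endothelial markers to 19.0 and 9.53. The dendritic cell markers summed to 776 CPM, nearly all of it H2-Eb1 at 766, with Xcr1, Clec9a, Siglech and Itgae at 0, against 7051 in cluster 17. The neutrophil markers summed to 534 CPM in cluster 8 and 397 in the other cells, with Ngp, Camp and Stfa2l1 at 0 in cluster 8. The part of these markers in the folds of cluster 8 was not tested.

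Cells of cluster 8 held a median of 9451 UMIs and 2.67% mitochondrial UMIs, against 8734 UMIs and 3.42% in the other tumor tissue cells, and their part in the differences was not tested. Of the 8 larger clusters, cluster 11 differed most in depth, with a median of 29673 UMIs, and the small cluster 13 had a median of 1477.5. Over the whole series 4 cells carried a barcode seen in more than 1 library, and 0 of them were in cluster 8.

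The chemokine transcripts were not held by a few cells of the cluster, though Ccl7 and Ccl12 were read in fewer cells than Ccl2. To set cells of unequal depth side by side, each was thinned to 3000 UMIs, which left 256 of the 258 cells of cluster 8 and 1586 of the other 1659. Ccl2 was read in 76.6% of cluster 8 cells (70.9 to 81.6), against 49.8% of the other tumor tissue cells, and in 90.3% and 70.2% before thinning. Ccl7 was read in 45.3% of cluster 8 cells (39.1 to 51.6) against 17.7%, and in 63.6% and 35.9% before thinning. For Ccl12 the shares were 30.9% (25.3 to 36.9) against 10.5%, and 53.5% and 22.2% before thinning. The cell with the most Ccl7 held 187 UMIs, or 7.35% of the cluster's Ccl7. Single cells held at most 246 of the cluster's 5287 UMIs of Ccl2 and 64 of its 1024 of Ccl12.

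Free RNA in droplets can give a UMI to a cell that does not express a gene, so the clusters with the lowest shares give a level to read against. For Ccl7 that was cluster 9, with 6.09% of its thinned cells (3.19 to 10.4), and for Ccl12 also cluster 9, with 2.54%. The lowest share for Ccl2 was 16.4% (7.77 to 28.8) in cluster 17. All 3 shares of cluster 8 lay above these intervals, at median depths before thinning of 9451 UMIs in cluster 8, 8782 in cluster 9 and 10695 in cluster 17. The clusters were made from these same RNA counts and no empty droplets were read, so the part of free RNA in these shares was not tested. At this depth all 3 genes were read together in 50 of 256 cells of cluster 8 (19.5%), against 65 of 1586 other cells (4.10%). Cluster 11 had them together in 25.4% of its cells, cluster 10 in 8.29%, cluster 3 in 3.09% and cluster 5 in 0.669%. In 17.6% of cluster 8 cells, against 44.3% of the other cells, none of the 3 was read.

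**Figure D2:**
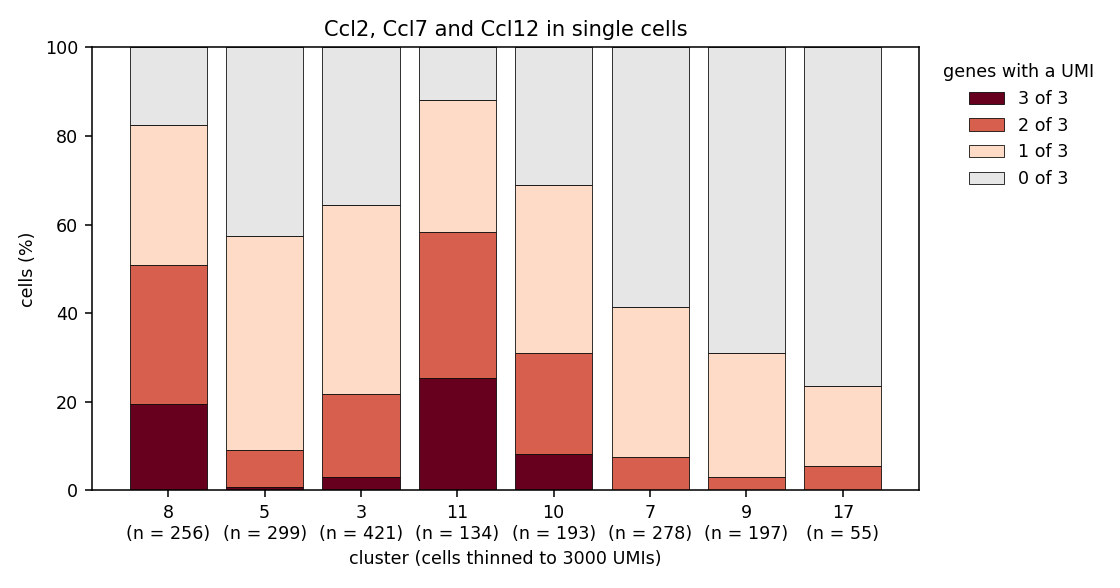
Share of cells (%) in which 3, 2, 1 or 0 of the genes Ccl2, Ccl7 and Ccl12 had a UMI, for the 8 tumor tissue clusters with at least 50 cells, after thinning each cell to 3000 UMIs. All 3 genes were read in 19.5% of cluster 8 cells and 25.4% of cluster 11 cells, and in at most 8.29% of the cells of the other clusters.

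Within cluster 8 the 3 CC chemokines went together from cell to cell more than the other markers did. Over the 256 thinned cells of this library, Spearman's rho was 0.49 between Ccl7 and Ccl2, 0.38 between Ccl7 and Ccl12 and 0.34 between Ccl2 and Ccl12. Irg1 and Cxcl10 stood at 0.25, and Ly6a with any of the 3 chemokines between -0.02 and 0.02, which at these counts is no relation. These values are descriptions over cells that share 1 library. Across the 8 larger clusters the genes whose level followed Ccl7 most closely were Ccl12 (Pearson's r 0.97), the lysosomal growth factor gene Grn (0.97), the ATP-gated channel gene P2rx7 (0.97), the adaptor gene Sh3bp2 (0.95) and the sorting nexin gene Snx30 (0.95). These were picked as the highest of 6177 genes over only 8 points, a choice that favors high values, and shared control was not tested.

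The other CC chemokines were not set against Ccl7 from cell to cell. Ccl8, the neighbour of Ccl12 on chromosome 11, stood at 10.6 CPM in cluster 8, against 26.0 in the other tumor tissue cells, 72.8 in cluster 11 and 41.1 in cluster 10. Ccl11 had 1.61 CPM in cluster 8. Of the other 8 CC chemokines looked up, 6 were measured and 0 passed 2-fold against the other tumor tissue cells, near the background of 0.874% higher and 0.855% lower. Among them the T-cell chemokine Ccl5 stood at 350 CPM in cluster 8 against 188, and Ccl4 at 592 against 409. Ccl6 stood at 1001 CPM against 1309 and Ccl9 at 914 against 982. The receptor genes were measured for 7 of 9 and 0 passed 2-fold, with Ccr2, the receptor for Ccl2, Ccl7 and Ccl12, at 726 CPM in cluster 8 and 616 in the other cells. Among CXC chemokines that attract neutrophils, Cxcl3 stood at 22.9 CPM against 62.7, while Cxcl2 at 1701 and 1407 did not pass 2-fold.

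The 3 clusters most like cluster 8, by Pearson's correlation of log2(CPM + 1) over 6177 genes, were cluster 5 (r 0.957), cluster 3 (0.951) and cluster 11 (0.943). Cluster 5 was near cluster 8 in most interferon genes and under it in complement genes, Ms4a7, Cxcl10 and Cxcl11. Cluster 3 was under cluster 8 in interferon genes and near it in Ms4a7 and Mrc1. Cluster 11 was under cluster 8 in interferon genes and near it in Ccl7 and Ccl12.

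Over cluster 5, cluster 8 was higher in macrophage genes, in Ccl2, Ccl7 and Ccl12 and in Cxcl10 and Cxcl11. Most genes of the type I interferon and interferon-gamma lists were at a like level. By at least 2-fold, 240 of 5074 measured genes (4.73%) were higher and 66 (1.3%) lower. Ccl7 stood at 820 CPM in cluster 8 and 51.5 in cluster 5, a 15.9-fold difference (13.4 to 19.2), and Ccl12 was 11.7-fold higher (9.23 to 15.2). Of 6 measured other CC chemokines 0 were higher. The complement genes C1qa, C1qb and C1qc were 12.7-fold, 9.99-fold and 10.4-fold higher, with C1qa at 1138 CPM against 89.5, and Ms4a7 was 10.8-fold higher. Mmp13 and Mmp12 were the other genes among the 4 highest, with 70 UMIs of Mmp13 and 170 of Mmp12 in cluster 8 and 1 and 8 in cluster 5. Without its top cell the log2 ratio of Mmp12 was 2.38, against 3.74 with it.

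Of the 18 tissue macrophage and scavenger receptor genes 10 were measured over cluster 5, and Mrc1, Stab1, Folr2, Axl, Trem2 and Apoe were higher and 0 lower. The median log2 ratio of the 10 was 1.54, against 0.11 over all measured genes. The mannose receptor gene Mrc1 stood at 82.2 CPM in cluster 8 and 21.0 in cluster 5, and the lipid carrier gene Apoe at 3611 and 1160. Arg1, which uses up arginine, and the secreted matrix protein gene Spp1 were 4.23-fold and 3.91-fold higher.

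Of 11 measured classical monocyte genes 5 were lower in cluster 8 over cluster 5, Vcan, Chil3, Plac8 and Cd177 among them, and 0 were higher, against 1.3% lower of all measured genes, with the chitinase-like gene Chil3 at 592 CPM against 2019. The lowest genes were Serpinb10, Ace, the leukocyte protease inhibitor gene Slpi at 291 CPM against 1440, and Tnfaip6, which encodes a hyaluronan-binding protein, at 9.67 against 48.3. Ly6c2 was level, with 2210 CPM in cluster 8 and 2223 in cluster 5. Of 28 measured type I interferon genes 2 (Ifit2 and Ifit3b) were higher and 0 lower, with a median log2 ratio of 0.15. Of 14 measured interferon-gamma genes 1 (Iigp1) was higher, with a median of 0.14. Outside these lists, Cxcl11 was 5.57-fold higher (3.84 to 8.35), Ifit1bl1 3.73-fold, Ly6a 2.41-fold and Cxcl10 2.16-fold. Of 4 measured T-cell-attracting CXC chemokines 3 were higher (Cxcl10, Cxcl11 and Cxcl16), with a median log2 ratio of 1.28. Cxcl9 stood at 341 CPM in cluster 8 and 371 in cluster 5.

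Over cluster 3, cluster 8 was higher in interferon genes. Of 5268 measured genes, 226 (4.29%) were higher and 14 (0.266%) lower by at least 2-fold. All 28 measured type I interferon genes were among the higher ones, with a median log2 ratio of 2.26 against -0.08 over all measured genes, and 12 of 14 measured interferon-gamma genes, with a median of 2.51. Rsad2, which encodes the antiviral enzyme viperin, stood at 875 CPM in cluster 8 and 29.7 in cluster 3. The ubiquitin-like antiviral gene Isg15 stood at 2816 CPM in cluster 8 and 357 in cluster 3, and the guanylate-binding protein gene Gbp2 at 475 and 42.0. The highest genes were Ifit1bl1 (334 UMIs against 4), Cxcl11 (219 against 4), Ifit3 (34.5-fold, 27.0 to 44.7) and the immunity-related GTPase gene Iigp1 (153 UMIs against 3).

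Ccl12 was 8.72-fold higher (7.39 to 10.3) and Ccl7 4.74-fold higher (4.37 to 5.15) over cluster 3, and Ccl2 2.15-fold. Ms4a7 and the complement genes stood closer, with Ms4a7 at 1.31-fold and C1qa at 1.70-fold, and Mrc1 at 82.2 CPM in cluster 8 and 79.2 in cluster 3. Of the tissue macrophage genes Axl alone passed 2-fold among 10 measured. The antigen-processing genes Tap1, Tapbp, Psmb9, Nlrc5 and H2-T23 were higher among 12 measured of MHC class I presentation, and Ly6c2 was 2.71-fold higher. Hmox1, which breaks down haem, was among the few lower genes, at 144 CPM in cluster 8 and 328 in cluster 3, as were Areg (13.9 and 56.6), Cxcl3 (22.9 and 101) and Pf4 (137 and 363). Retnla was lowest, with 3 UMIs in cluster 8 and 110 in cluster 3, but 106 of those came from 1 cell, and without it the log2 ratio was 0.041. Of 5 measured neutrophil markers S100a8 (168 CPM in cluster 8 and 37.9 in cluster 3), S100a9 and G0s2 were higher, with a median log2 ratio of 1.60, as was the B cell marker Ighm, at 42.6 and 14.6 CPM. Single cells of cluster 8 held 120 of its 522 UMIs of S100a8, 139 of its 655 of S100a9 and 115 of its 215 of G0s2. The neutrophil markers summed to 534 CPM in cluster 8 and 197 in cluster 3, and their part in these differences was not tested. Thinning every cell to 3000 UMIs gave 238 higher and 135 lower genes.

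Over cluster 11, the interferon genes were again higher, Ccl2, Ccl7 and Ccl12 lay within 2-fold, and macrophage and cell cycle genes were lower. Of 5599 measured genes, 196 (3.5%) were higher and 262 (4.68%) lower by at least 2-fold. Ccl7 stood at 0.946-fold of cluster 11 (0.899 to 0.996), Ccl12 at 0.894-fold and Ccl2 at 1.55-fold. Of the measured type I interferon genes 27 of 28 were higher, with a median log2 ratio of 1.80 against -0.13 over all measured genes, and 12 of 14 interferon-gamma genes. Cxcl11 was 9.67-fold higher (6.62 to 14.6), Cxcl10 5.66-fold and Ifit3 5.67-fold, Ifit3b stood at 59.3 CPM in cluster 8 and 9.42 in cluster 11, and Ly6c2 stood at 2210 CPM in cluster 8 and 608 in cluster 11.

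The complement genes C1qa, C1qb and C1qc stood at 0.370-fold, 0.433-fold and 0.376-fold of cluster 11, and Mrc1, Cd36, Stab1, Folr2 and Gas6 were lower among 12 measured tissue macrophage genes. Folr2, a folate receptor of resident macrophages, stood at 37.1 CPM in cluster 8 and 218 in cluster 11. Of 15 measured cell cycle genes 13 were lower and 0 higher, with a median log2 ratio of -3.12. The proliferation marker Mki67 had 6 UMIs in cluster 8 (1.93 CPM) and 223 in cluster 11 (52.5 CPM), and Cenpf, Tk1 and Cdca8, which act in chromosome segregation and DNA synthesis, had 2, 3 and 3 UMIs in cluster 8. With cells thinned to 3000 UMIs, 4 cell cycle genes were measured and 2 lower.

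**Figure D3:**
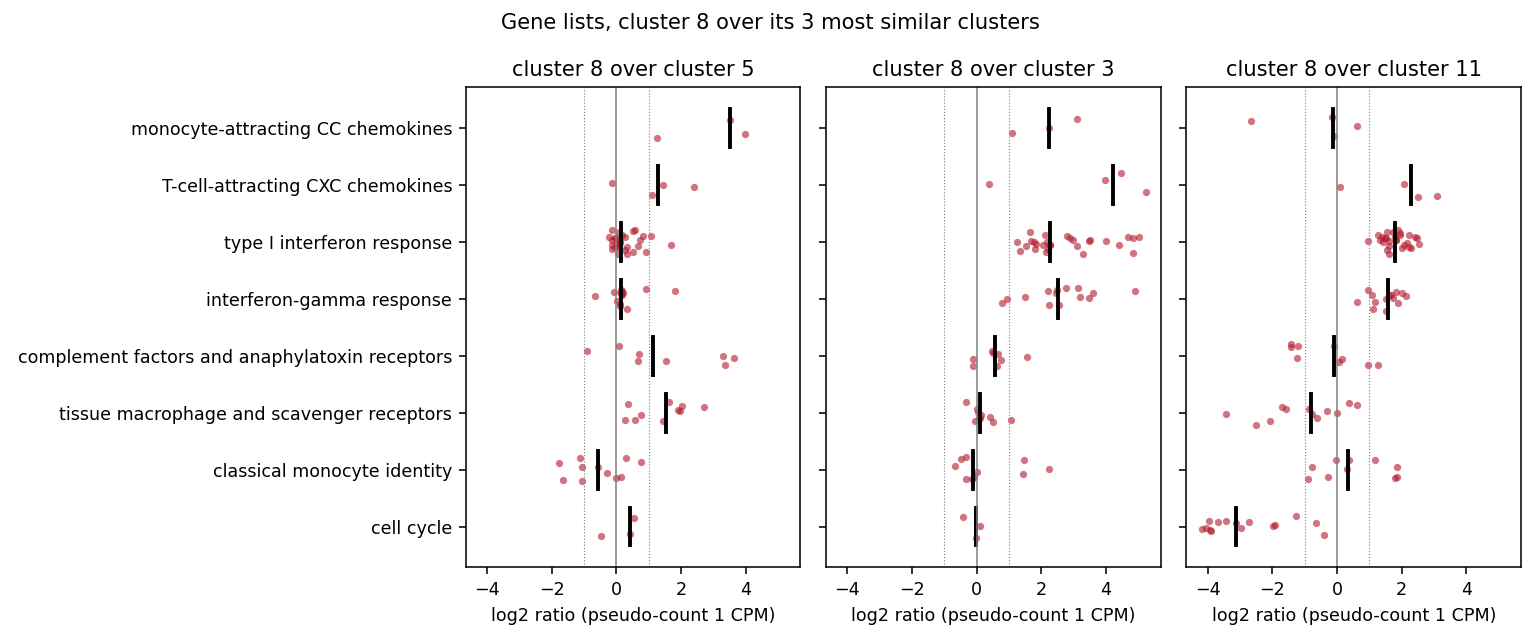
Log2 ratio (pseudo-count 1 CPM, horizontal axis) of the measured members of 8 gene lists, cluster 8 over cluster 5, cluster 3 and cluster 11. Points are genes, black bars list medians and dotted lines 2-fold; the type I interferon median is 0.15 over cluster 5, 2.26 over cluster 3 and 1.80 over cluster 11, and the monocyte-attracting CC chemokine median 3.51, 2.24 and -0.12.

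These genes were also read in the same cells. After thinning, Ms4a7 and Cxcl10 were both read in 106 of 256 cells of cluster 8 (41.4%, 35.3 to 47.7), against 131 of 1586 other tumor tissue cells (8.26%). Cluster 11 followed at 29.9%, then cluster 10 at 14.5%, cluster 3 at 8.55% and cluster 5 at 6.35%. Spearman's rho between Ms4a7 and Cxcl10 over the 256 cells of cluster 8 was 0.01. Doublets were not called, and their part in these shares was not tested. Isg15 was read in 96.9% of thinned cluster 8 cells, against 95.7% in cluster 5 and 45.8% in cluster 3. C1qa was read in 128 of 256 thinned cluster 8 cells (43.7 to 56.3%), against 19.4% in cluster 5 and 38.5% in cluster 3. The clusters were made from these RNA counts, so the shares describe how the cluster was put together.

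Cluster 8 was a cluster of its own only at resolution 1 of the authors' clustering. At resolution 0.9, 143 of its cells lay in a group with 302 cells of cluster 5 and 198 of cluster 10, another 113 lay in a group with 418 cells of cluster 3, and 2 lay with cluster 11. At each lower resolution down to 0.2 the cells were likewise divided between groups, with 55.4% to 62.8% in the larger one. The cells grouped with clusters 5 and 10 held a median of 8987 UMIs and those grouped with cluster 3 a median of 10006.

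The cells grouped with clusters 5 and 10 differed from those grouped with cluster 3 in interferon genes and not by 2-fold in Ccl2, Ccl7 or Ccl12. Of 5259 measured genes, 122 (2.32%) were higher and 78 (1.48%) lower by at least 2-fold. These groups too were drawn from the same RNA counts. Ccl7 stood at 949 CPM in the cells grouped with clusters 5 and 10 and 708 in those grouped with cluster 3, Ccl12 at 392 and 271, and Ccl2 at 1877 and 1588, each under 2-fold. Ccl7 stood at 51.5 CPM in cluster 5, 311 in cluster 10 and 173 in cluster 3, under both sets of cells. Cluster 10 was closer in Ccl12, at 217 CPM, and in Ccl2, at 1524. With cells thinned to 3000 UMIs, 127 genes were higher and 53 lower among 3264 measured, and 65 of the 200 calls were kept.

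Cxcl9 was 5.76-fold higher (4.85 to 6.88) in the cells grouped with clusters 5 and 10, Cxcl11 5.96-fold (4.06 to 9.02) and Cxcl10 3.78-fold, at 4216 CPM against 1114. Of 28 measured type I interferon genes 13 were higher and 0 lower, with Rsad2 at 1305 CPM against 457, and 10 of 14 interferon-gamma genes, with Gbp2 at 708 against 235. The interferon genes of the cells grouped with cluster 3 were nonetheless well above those of cluster 3 itself, with Rsad2 at 457 and 29.7 CPM, and Isg15 at 1714 and 357. Irg1 was 3.08-fold higher (2.55 to 3.73) in the cells grouped with clusters 5 and 10, and S100a8, an alarmin of neutrophils and monocytes, 3.10-fold, at 251 CPM against 80.9, with 120 of its 385 UMIs in 1 cell. Ccl4, Ccl5 and Ccl24 were also higher among 6 measured other CC chemokines, Ccl24 with 65 of its 85 UMIs in 1 cell. Ccl4 was 2.11-fold higher, with 188 of its 1238 UMIs in 1 cell. Ccl5 was 2.33-fold higher, with 154 of its 758 UMIs in 1 cell. On the cluster 3 side 1 cell held 51 of the 577 UMIs of Ccl4 and 1 cell 87 of the 320 of Ccl5. Of 5 measured neutrophil markers S100a8, S100a9 and G0s2 were higher, with 139 of the 443 UMIs of S100a9 in 1 cell and 115 of the 179 of G0s2 in 1 cell. Among the cells grouped with cluster 3, 1 cell held 92 of the 122 UMIs of S100a8 and 1 cell 126 of the 184 of S100a9. The part of these markers in these differences was not tested.

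Lower in the cells grouped with clusters 5 and 10 were Ltc4s, which makes leukotriene C4, at 9.12 CPM against 43.1, the growth factor gene Pdgfb at 22.8 against 62.3, and Folr2 at 22.2 against 45.1. Folr2 rested on 34 and 68 UMIs (0.491-fold, 0.315 to 0.752), with 9 of the 68 in 1 cell. C1qa stood at 757 CPM against 1465 (0.517-fold, 0.481 to 0.555) and Ms4a7 at 730 against 895, neither past 2-fold. Mmp12 stood at 28.7 CPM against 83.6, of which 84.1% came from the cell named above.

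**Figure D4:**
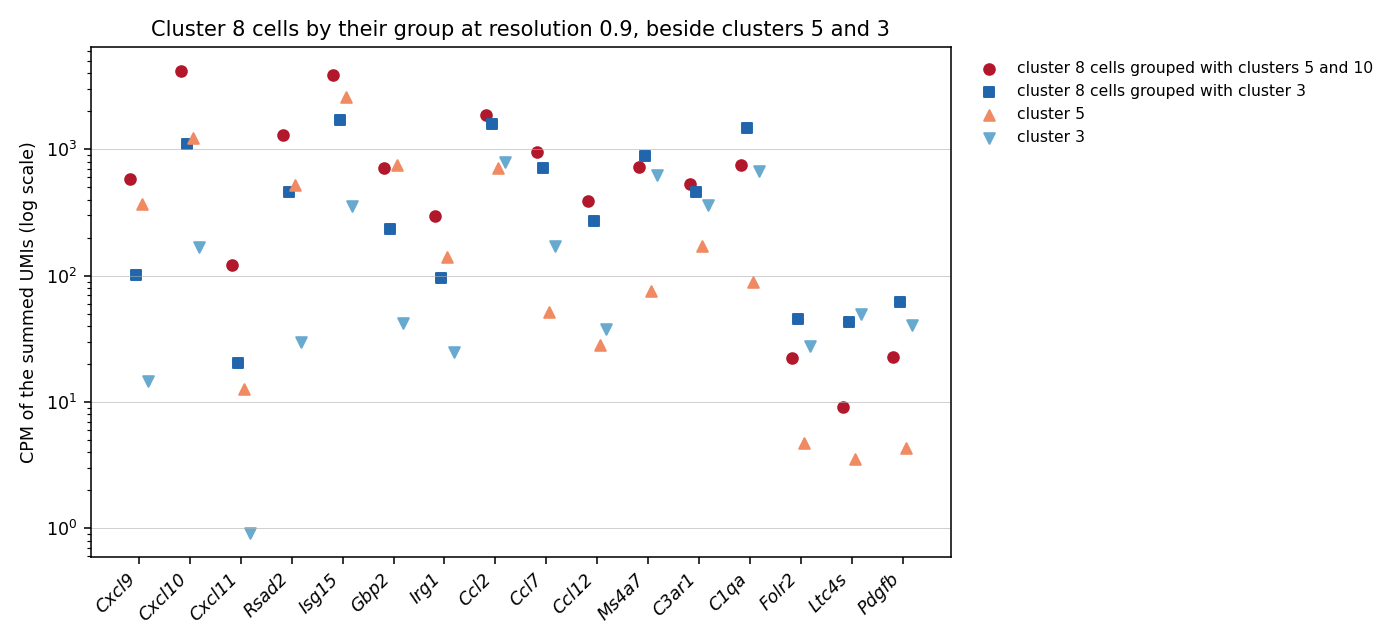
Level (CPM of the summed UMIs, log axis) of 16 genes in cluster 8 cells grouped with clusters 5 and 10 at resolution 0.9, in cluster 8 cells grouped with cluster 3, in cluster 5 and in cluster 3. Both sets of cluster 8 cells are above clusters 5 and 3 for Ccl2, Ccl7 and Ccl12, while Cxcl9, Cxcl10 and Cxcl11 separate the 2 sets.

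Single members of the Fc receptor, complement and macrophage receptor lists were higher against the other tumor tissue cells, where 0.874% of all measured genes were. The Fc receptor gene Fcgr4 stood at 287 CPM in cluster 8 and 118 in the other tumor tissue cells (2.44-fold, 2.26 to 2.64), and was the only member of 5 Fc gamma receptor genes past 2-fold. Fcgr1, the high-affinity receptor, stood at 1529 CPM against 767 (1.99-fold), while Fcgr2b and Fcgr3 were at 1.36-fold and 1.12-fold. Cfb, the complement factor B gene, was 2.40-fold higher (2.23 to 2.58) and the 1 of 9 measured complement genes past 2-fold, and the C5a receptor gene C5ar1 stood at 504 CPM against 371. Axl, a receptor for dying cells, was 2.44-fold higher (2.22 to 2.69) and the 1 of 10 measured tissue macrophage and scavenger receptor genes past it, and Socs1, a brake on interferon signalling, 2.10-fold. Cluster 10 stood above cluster 8 for Fcgr1 (1926 CPM), Cfb (376 against 345) and Socs1 (312 against 146). It stood near cluster 8 for Fcgr4 (267) and below it for Axl (117 against 190) and C5ar1 (184).

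Other lists held no gene past 2-fold against the other tumor tissue cells, where 0.874% of all measured genes were higher and 0.855% lower, so that 0 of so few members is near the background. They were NF-kB response and feedback (0 of 19 measured), cytokines (0 of 8), MHC class II (0 of 6), costimulation and checkpoint ligands (0 of 8), pattern recognition receptors (0 of 12), cathepsins and lysosome (0 of 17), hypoxia and glycolysis (0 of 18), heat shock (0 of 9), endoplasmic reticulum stress (0 of 11), immediate early AP-1 genes (0 of 16) and transcription factors of monocyte fate (0 of 15). Within them Tnf stood at 114 CPM in cluster 8 and 77.9 in the other cells, Cd274, the gene for PD-L1, at 102 and 58.7, and Irf8, a regulator of monocyte and dendritic cell fate, at 313 and 178. The MHC class II gene H2-Ab1 stood at 997 and 881 CPM.

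The surface antibodies gave another readout of the same cells, with 47 antibodies and a median of 2262.5 tag counts per cell in cluster 8, against 1521 in the other tumor tissue cells. None was higher (0%) or lower (0%) by at least 2-fold against the other tumor tissue cells. The highest folds were 1.25 for CD16.2 (1.23 to 1.28), the protein of Fcgr4, 1.21 for I-A-I-E, MHC class II, and 1.18 for CD88, the C5a receptor. Against an equal mix of the other clusters I-A-I-E stood at 0.817-fold, and by medians over cells CD16-32 was 1.61-fold higher, against 0.962-fold from the sums. The lowest were 0.856 for CD97, 0.905 for CD11b and 0.956 for PD-1H. Ly-6C was at 0.998-fold from the sums, but at 0.780-fold by medians over cells and 0.861-fold against the equal mix. The tag for Sca-1, the protein of Ly6a, was 1.11-fold higher (1.09 to 1.13), against 2.74-fold for the RNA.

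Over the 3 most like clusters, CD16-32 and Ly-6C were the antibodies that passed 2-fold, each over 1 of them. CD16-32, the low-affinity Fc receptors, stood at 634 per 10000 tag counts in cluster 8, 616 in cluster 3, 305 in cluster 5 and 1148 in cluster 11, and was the 1 of 47 antibodies past 2-fold over cluster 5 (2.13%), at 2.08-fold (2.04 to 2.11). Ly-6C, carried by classical monocytes, stood at 1590 per 10000 in cluster 8, 2344 in cluster 5, 1365 in cluster 3 and 793 in cluster 11. It was the 1 of 47 past 2-fold over cluster 11 (2.13%), at 2.01-fold (1.99 to 2.02), and none passed over cluster 3 (0%). Between the cells grouped with clusters 5 and 10 and those grouped with cluster 3, Ly-6C was 1.18-fold and CD16-32 0.855-fold, and none of 47 passed 2-fold (0%). The median tag count per cell was 7423 in cluster 11, 1505 in cluster 5 and 1842 in cluster 3, and the part of this depth in these folds was not tested.

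**Figure D5:**
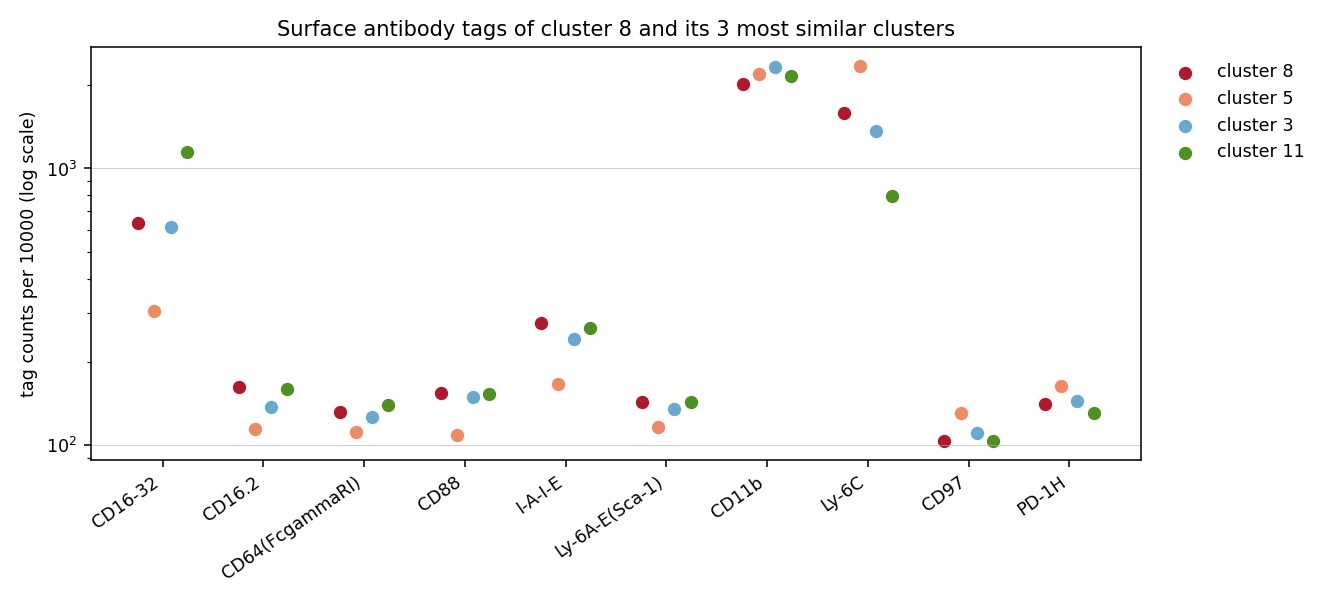
Tag counts per 10000 of the summed antibody counts (log axis) for 10 antibodies in cluster 8 and clusters 5, 3 and 11. Cluster 8 is near cluster 3 for CD16-32 (634 and 616) and lies between clusters 5 and 3 for Ly-6C.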

How the data were processed

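Per the labels' protocols, RNA and antibody tags of CD11b+ enriched single cells were captured with 10x Genomics 3' chemistry. The submitters' processing notes name Cell Ranger and mm10. Which version, annotation or cell filter applied was not given in the sources used here. Deposited by the authors were UMI counts (25127 genes, 4290 cells), antibody tag counts (47 antibodies) and normalized tag values, which are the natural log of 1 plus a cell's tag counts per 10000. They also deposited metadata of 4527 cells with cluster numbers and a mitochondrial fraction, per the file headers. Cells were used as deposited and doublets were not called, so an alternative drops the 2% of tumor tissue cells with the most UMIs. The tumor tissue library held 20844058 UMIs, with a median of 8841 per cell.

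Summed UMIs of a group were scaled to CPM. The groups compared are all sets of cells from 1 library, so there is no test. Intervals are exact at 95%, conditional binomial for folds and Clopper-Pearson for shares, and cover counting error only. A pseudo-count of 1 CPM entered the log2 ratios but not the folds. Calls needed 2-fold, 30 UMIs over both sums and 20 CPM in either, and the code was tested on simulated data. Thinning drew 3000 UMIs per cell (seed 11). Software was Python 3.11.15 with numpy 2.4.6, scipy 1.17.1, pandas 2.3.3 and matplotlib 3.10.9, and R 4.3.3 with edgeR 4.0.16, used for TMM factors alone.

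The text names the 8 labelled markers, the 10 highest and 10 lowest log2 ratios against the other tumor tissue cells, the 4 highest and 4 lowest against each of the 3 most similar clusters, up to 4 members of each list by size of ratio, every CC chemokine, the antibodies past 2-fold or the 3 highest and 3 lowest, and the 5 genes most like Ccl7. That ranking skipped genes of mitochondria, ribosomal proteins, haemoglobin, antibodies and sex chromosomes, and gene models without a name. Other genes named, and the comparison by groups of resolution 0.9, were picked after their values were seen. The members and lists were chosen with earlier results of these data known. Some genes that this rule or the lists would name are not reported here.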

Additional observations from a re-analysis of the deposited data

How the results depend on the processing

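Against the other tumor tissue cells, the 45 higher and 44 lower genes became 113 and 89 with cells thinned to 3000 UMIs, 825 and 2741 with no minimum on UMIs or CPM, 25 and 17 with a pseudo-count of 10 CPM, and 242 and 138 at 1.5-fold. The higher genes were 76 with means of CPM over cells and 79 without cluster 11. Over cluster 5 (240 higher, 66 lower), thinning gave 100 lower genes and no minimum 2498 higher and 1026 lower. Over cluster 3 (226 and 14), the lower genes were 135 with thinned cells, 24 scaled without mitochondrial, ribosomal-protein and haemoglobin genes, 32 without the top cluster 8 cell of each gene and 8 without the top cluster 3 cell, and no minimum gave 1359 and 1560. Over cluster 11 (196 and 262), thinning gave 249 and 222 and no minimum 1068 and 2684. Thinned cells kept 70 of 89 calls against the other tumor tissue cells, 192 of 306 over cluster 5, 200 of 240 over cluster 3 and 242 of 458 over cluster 11. Between the cells grouped with clusters 5 and 10 and those grouped with cluster 3 (122 and 78), the lower genes were 140 without the top cell of each gene on the first side and 35 without that on the second. The ratios of Cbr2 (0.31 without cluster 11) and Retnla over cluster 3 (0.041 without its top cell) changed sign. Of 644 values of named genes under alternatives, 497 stayed within the counting interval of the value reported, 145 moved and 2 changed sign. The 70 values with no minimum and the 24 at 1.5-fold are among those that stayed, and could not move because neither setting enters the ratio. Thinning moved 46 values and left 32 in place, and the equal mix moved 12 and left 12. The causes were not tested beyond what each alternative leaves out. Leaving out the top other cell, and all alternatives between the cells of cluster 8, were chosen after seeing the data.

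All 28 type I interferon genes stayed higher over cluster 3 under every alternative run, and 27 or 28 over cluster 11. No antibody passed 2-fold against the other tumor tissue cells under any alternative run, though some folds near 1, those of I-A-I-E and CD16-32 among them, changed direction. No paired analysis was possible because each tissue and state is 1 library and the comparisons lie within 1 of them. Depth limits cluster 13, with 66701 UMIs, and genes under 20 CPM in both groups, which were not compared. With 1 library, nothing here says how cluster 8 would vary between mice.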
